A study of Canis lupus familiaris with 17 samples.

Results

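The comparison set 4 canine soft tissue sarcomas given 2 intratumoral doses of interleukin-2 (IL-2) and interleukin-12 (IL-12) against 3 given 1 dose. Both groups were excised 8 days after the first dose. These 7 tumours, of 17 in the series, were chosen by their sample titles. The 2-dose tumours received the cytokines again on day 6 and were therefore taken 2 days after the last dose, while the 1-dose tumours were taken 8 days after theirs. Both cytokines were fusion proteins that bind collagen and were injected in all 7 tumours. The animals were client-owned pet dogs with spontaneous tumours, 1 dog per tumour. Of the 2-dose tumours, A, B and C were peripheral nerve sheath tumours and D was a fibrosarcoma. Of the 1-dose tumours, A was a perivascular wall tumour and B and C were peripheral nerve sheath tumours. Number of doses, days since the last dose and, in part, tumour type thus changed together and cannot be told apart in this comparison. A further 7 archived untreated sarcomas, 4 of the perivascular wall and 3 of the peripheral nerve sheath type, give the untreated levels quoted below. The remaining 3 tumours of the series were excised 2 days after 1 dose. Of these, A and C were peripheral nerve sheath tumours and B was a myxosarcoma. They entered the fit, the background filter and the mean housekeeping level used for scaling, but their levels are not quoted. The age of the dogs is not given in the sources used here.

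IL-2 is a growth factor for T cells and natural killer (NK) cells, which sense it through the receptor chains IL2RA, IL2RB and IL2RG. IL-12, normally released by dendritic cells and macrophages, acts through IL12RB1 and IL12RB2 and STAT4 and makes the same lymphocytes produce interferon-gamma. Interferon-gamma acts on most cells of a tumour and turns on IRF1, the chemokines CXCL9, CXCL10 and CXCL11, antigen presentation, and brakes on T cells such as CD274 (PD-L1) and IDO1. CXCL9 is not on the panel used here.

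RNA from formalin-fixed, paraffin-embedded tissue was measured on NanoString's canine immuno-oncology panel, in which barcoded probes bound to RNA are counted with no amplification step. Levels are raw counts scaled to the 20 housekeeping probes of each tumour, called scaled counts below. A probe was above background in a tumour when its count exceeded the mean plus 2 SD of the 8 negative control probes. Endogenous counts summed to 205118 to 1752729 in the 2-dose tumours and to 1397025 to 1571458 in the 1-dose tumours. The lowest total belonged to 2-dose tumour D. Its housekeeping geometric mean was 55.1 counts, against 297 in 2-dose tumour B, 608 and 643 in C and A, and 526 to 709 in the 1-dose tumours. The positive control probes, spiked RNA of fixed amount, had a geometric mean of 69.8 counts in D and 311 in B, against 965 and 1243 in the other 2-dose tumours and 1057 to 1554 in the 1-dose tumours. In D the background limit came to 338 scaled counts and 416 of 780 endogenous probes passed it. In the other 6 tumours that limit was 17.5 to 66.1 scaled counts and 624 to 686 probes passed. Over all 780 endogenous probes, log2 levels of 2-dose tumours B and D correlated at r = 0.948 and those of A and C at 0.941, while the other 2-dose pairs gave 0.779 to 0.822. The 1-dose pairs gave 0.936 to 0.945. A and C correlated with the 1-dose tumours at 0.913 to 0.933, and B and D at 0.687 to 0.747. The 2-dose tumours therefore were not alike, and each result is given per tumour.

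Of the markers chosen for the labelled tumour types, SOX10, a Schwann cell transcription factor, was above background in 0 of 4 2-dose and 0 of 3 1-dose tumours. S100B, a Schwann cell marker, was above it in 3 of 4 2-dose and 3 of 3 1-dose tumours. NCAM1, a neural adhesion molecule, was above it in 2 of 4 2-dose and 3 of 3 1-dose tumours. NGFR, ACTA2, RGS5, CSPG4 and DES are not on the panel. The labelled types were checked only by SOX10, S100B and NCAM1, by pericyte gene PDGFRB and by VIM, the mesenchymal filament gene vimentin. The pericyte gene MCAM and the neural genes ERBB3, GFAP and TUBB3 are on the panel but were not used for this check. PDGFRB had 2254, 2518, 7367 and 2230.1 scaled counts in the 2-dose tumours and 1226, 1596 and 4682 in the 1-dose tumours. The lowest PDGFRB value was that of 1-dose tumour A, the only perivascular wall tumour of the 7, and the highest were those of 2-dose tumour C and 1-dose tumour C, both labelled peripheral nerve sheath tumours. NCAM1 had 517, 37.5, 23.1 and 70.2 scaled counts in the 2-dose tumours and 467, 172 and 175 in the 1-dose tumours. It was higher in perivascular wall tumour A of the 1-dose group than in all the nerve sheath tumours except 2-dose tumour A, so PDGFRB and NCAM1 did not follow the labelled types. VIM had 150228, 36296, 239188 and 55523 scaled counts in the 2-dose tumours and 325810.3, 186970.3 and 258061 in the 1-dose tumours. The lowest of the 7 values were those of 2-dose tumours B and D. In bulk tissue, fewer cells of a type and less RNA per cell cannot be told apart.

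Of 724 tested genes, 68 (9.39%) were called higher after 2 doses and 0 were called lower by edgeR's quasi-likelihood test at an adjusted p under 0.05. At an unadjusted p under 0.05, 222 were higher and 15 lower. DESeq2 called 103 genes higher and 20 lower with its own size factors, and 197 higher and 11 lower with housekeeping scaling. With the spread estimated from only the 7 compared tumours, edgeR called 0 genes, with the lowest adjusted p at 0.118 and 195 genes at an unadjusted p under 0.05. The called genes lay 1.63 to 8.12 log2 above the 1-dose level, with a median of 3.08 and adjusted p of 0.0158 to 0.0483. The median of all 724 tested genes was 0.61 log2. Scaling by TMM, which takes most genes as unchanged, brought that median to 0.04 and gave 48 genes higher (6.63%) and 8 lower (1.1%). All 48 were among the 68. Counts over gene lists, given below, describe these tumours beside the shares over all tested genes, and no list was tested as a whole. Some genes are on more than 1 list and are counted in each. In 58 of the 68 genes, all 4 2-dose tumours exceeded all 3 1-dose tumours, a pattern found in 115 of the 724 (15.9%). Tumours B and D were the highest pair in 67 of the 68 and in 431 of the 724. Taken singly, A, B, C and D exceeded all 3 1-dose tumours in 67, 68, 59 and 68 of the 68 genes, and in 37.7%, 59.8%, 29.8% and 62.2% of all tested genes. In 15 of the 68 genes D was below its background limit of 338 scaled counts. The limits of the 1-dose tumours were 18.6 to 23.9, so the rank of D in those 15 genes rests on counts at background.

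The largest difference was in CXCL10, a chemokine that draws CXCR3-bearing T and NK cells. It had 12608, 41729.6, 1514 and 59114 scaled counts in 2-dose tumours A, B, C and D, against 55.96, 139 and 116 in 1-dose tumours A, B and C. Every 2-dose tumour was above every 1-dose tumour and above the untreated range of 11.4 to 478. The difference was 8.12 log2 (SE 1.82, adjusted p = 0.0182).

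IFNG, interferon-gamma itself, had 36.8, 1756, 23.9 and 1686 scaled counts in the 2-dose tumours and 7.51, 14.7 and 11.02 in the 1-dose tumours. B and D stood far above A and C, whose background limits were 18.2 and 17.5. No 1-dose tumour passed background, and untreated tumours had 4.57 to 10.8, so the fold for IFNG, 6.28 log2 (SE 1.31, adjusted p = 0.0158), is against counts at background. That fold compares group means, in which B and D weigh most. It was 4.31 log2 by limma on the authors' normalized values (adjusted p = 0.0611). With background subtraction edgeR gave 12.6 log2 (adjusted p = 0.0902). IFNG was called in neither. Before any scaling IFNG had 49, 1077, 30 and 192 counts in the 2-dose tumours and 11, 19 and 12 in the 1-dose tumours. The unscaled counts of the 2 groups did not overlap either.

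**Figure D1:**
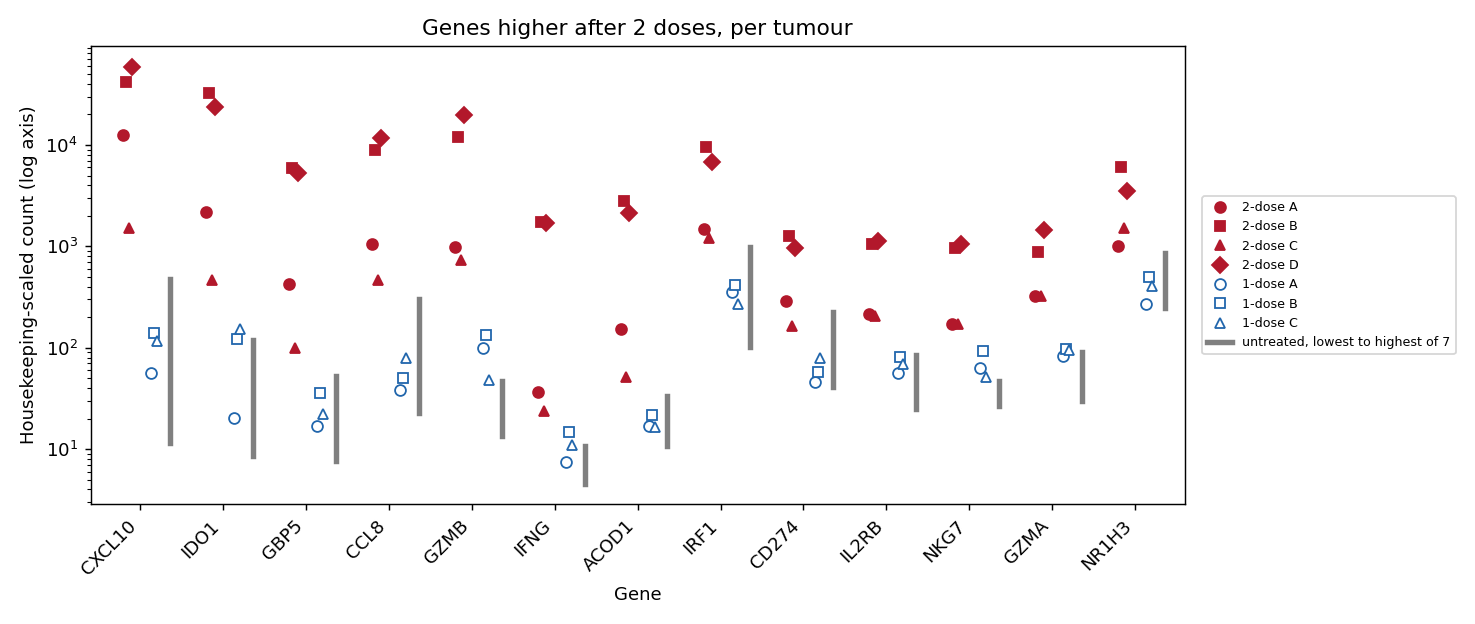
Housekeeping-scaled counts (log axis) of 13 genes called higher after 2 doses, with each 2-dose tumour (filled, red) left of each 1-dose tumour (open, blue) and the range of 7 untreated tumours as a grey bar. In every gene all 4 2-dose tumours lie above all 3 1-dose tumours, and B and D lie above A and C.

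Interferon-gamma response genes were called higher in 11 of 22 and lower in 0, against 9.39% higher over all tested genes. Their median was 2.37 log2, against 0.61 over all tested genes, and 9 were also called with TMM. IDO1, which breaks down tryptophan, had 2163, 32710.2, 468 and 23723 scaled counts in the 2-dose tumours and 20.5, 122 and 153 in the 1-dose tumours. No values overlapped, although C at 468 was far under B and D. The difference was 7.23 log2 (SE 1.61, adjusted p = 0.0182). GBP5, a guanylate-binding protein, had 421, 5939, 99.4 and 5312 scaled counts in the 2-dose tumours and 17.1, 35.5 and 22.05 in the 1-dose tumours, a difference of 6.88 log2 (SE 1.35, adjusted p = 0.0158). ACOD1, the macrophage enzyme that makes itaconate, had 153, 2806, 50.9 and 2116 scaled counts in the 2-dose tumours and 17.1, 21.6 and 16.5 in the 1-dose tumours. All 4 of its 2-dose values were above background and none of its 1-dose values were. ACOD1 differed by 6.11 log2 (SE 1.16, adjusted p = 0.0158).

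IRF1, a transcription factor that drives many interferon-gamma targets, had 1476, 9541, 1215 and 6787 scaled counts in the 2-dose tumours and 351, 419 and 273 in the 1-dose tumours, a difference of 3.77 log2 (SE 0.88, adjusted p = 0.0199). CXCL11, the sister chemokine of CXCL10, did not pass: it had 28.6, 245, 23.1 and 228 scaled counts in the 2-dose tumours and 26.6, 26.99 and 34.9 in the 1-dose tumours (2.11 log2, SE 0.76, adjusted p = 0.0713). Only B and D exceeded the 1-dose range, and D did so below its own background limit.

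Other leading genes were IFGGC1, with 1533, 6668, 359 and 5435 scaled counts in the 2-dose tumours and 56.6, 281 and 79.9 in the 1-dose tumours, at 4.65 log2, and ANKRD22 at 4.22 log2. FCER2, the low-affinity IgE receptor CD23, had 62.4, 776, 53.3 and 1009.7 scaled counts in the 2-dose tumours, against 17.7, 29.3 and 38.6 in the 1-dose tumours and differed by 4.04 log2. In ANKRD22 tumour C, at 65.2, lay within the 1-dose range of 19.8 to 91.9.

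The type I interferon list, whose genes also answer viral sensing, was called higher in 1 of 11 and lower in 0, near the 9.39% of all genes. Its median was 1.09 log2 with housekeeping scaling and 0.48 with TMM. The called gene was ISG20, an RNA exonuclease, with 275, 1349, 203 and 1361 scaled counts in the 2-dose tumours and 32.8, 115 and 72.6 in the 1-dose tumours (3.43 log2, SE 1.02, adjusted p = 0.0452). MX1, an antiviral GTPase, had 1335, 660.4, 1078 and 649.7 scaled counts in the 2-dose tumours, against 310.5, 1926 and 425 in the 1-dose tumours (0.07 log2, SE 0.90), and 1-dose tumour B held the highest of the 7. In MX1 the sign turned with TMM.

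Genes of MHC class I presentation, which shows peptides to CD8 T cells, were called higher in 4 of 11 and lower in 0, against 9.39% higher over all tested genes, with a median of 2.27 log2. With TMM 3 were called. All 11 had a positive difference, as did 513 of the 724 tested genes. PSMB8, an immunoproteasome subunit, had 762, 5195, 383 and 2300.3 scaled counts in the 2-dose tumours and 168, 315 and 299 in the 1-dose tumours (3.05 log2, SE 0.92, adjusted p = 0.0455). PSMB10, another subunit, had 480.5, 2122, 278 and 1703 scaled counts in the 2-dose tumours, against 91.4, 162 and 147 in the 1-dose tumours (3.10 log2, SE 0.69, adjusted p = 0.0182). NLRC5, the transactivator of class I genes, had 456, 1797, 184 and 1282 scaled counts in the 2-dose tumours, against 88.7, 106 and 106 in the 1-dose tumours (3.21 log2, SE 0.74, adjusted p = 0.0182). In all of PSMB8, PSMB10 and NLRC5 the groups did not overlap, but PSMB8 was not called with TMM (adjusted p = 0.0587). TAP1, a peptide transporter, just missed the threshold with 1123, 3390.2, 636 and 2985 scaled counts in the 2-dose tumours and 169, 513 and 424 in the 1-dose tumours (2.46 log2, SE 0.77, adjusted p = 0.0502). B2M, the light chain of class I, had 90699.6, 192670.3, 41352 and 245148 scaled counts in the 2-dose tumours, against 19193, 52840.0 and 45972 in the 1-dose tumours (1.86 log2, SE 0.83, adjusted p = 0.13), and tumour C lay inside the 1-dose range.

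Genes of MHC class II presentation, which serves CD4 T cells, were called higher in 2 of 10 and lower in 0, against 9.39% higher over all tested genes, with a median of 2.55 log2, and 1 was called with TMM. In 6 of 10 all 2-dose tumours exceeded all 1-dose tumours, against 15.9% of all tested genes. CIITA, the master regulator of class II genes, had 438, 2102, 258 and 1905 scaled counts in the 2-dose tumours and 101, 139.6 and 168 in the 1-dose tumours (3.10 log2, SE 0.74, adjusted p = 0.0206). DLA-DRA, the alpha chain of the canine DR molecule, had 23465, 80372, 13826 and 84970.3 scaled counts in the 2-dose tumours, against 3324, 7158 and 13486 in the 1-dose tumours. CD74, the invariant chain, had 21602, 78688, 13587 and 75181 scaled counts in the 2-dose tumours, against 3505, 8988 and 12569 in the 1-dose tumours. Neither DLA-DRA (2.66 log2, adjusted p = 0.0794) nor CD74 (2.50 log2, adjusted p = 0.0662) passed the test. In both genes 1-dose tumour C came within a short distance of 2-dose tumour C.

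Cytotoxic effector genes were called higher in 8 of 13 and lower in 0, against 9.39% higher over all tested genes. Their median was 2.59 log2, and all 8 were also called with TMM. GZMB, the protease granzyme B that killer lymphocytes inject into target cells, had 993, 12092, 739 and 19895 scaled counts in the 2-dose tumours and 100.3, 133 and 47.8 in the 1-dose tumours. The lowest 2-dose value was 739 and the highest 1-dose value 133, and untreated tumours had 13.4 to 47.5. The difference in GZMB was 6.49 log2 (SE 1.22, adjusted p = 0.0158). GZMA, granzyme A, had 321, 871, 326 and 1439.9 scaled counts in the 2-dose tumours and 82.6, 97.2 and 95.5 in the 1-dose tumours (3.00 log2, SE 0.59, adjusted p = 0.0158), and A and C were close to each other at 321 and 326. NKG7, a cytotoxic granule protein, had 171, 967, 172 and 1054 scaled counts in the 2-dose tumours and 63.5, 93.3 and 51.4 in the 1-dose tumours (3.08 log2, SE 0.63, adjusted p = 0.0158). PRF1, the pore-forming perforin, had 203, 437, 274 and 983 scaled counts in the 2-dose tumours, against 136, 109.5 and 222 in the 1-dose tumours and did not pass (1.58 log2, SE 0.53, adjusted p = 0.0617). In PRF1 2-dose tumour A lay inside the 1-dose range. FASLG, a death ligand, had 62.4, 364, 77.9 and 202 scaled counts in the 2-dose tumours, against 30.02, 32.4 and 24.8 in the 1-dose tumours (2.59 log2, SE 0.65, adjusted p = 0.0291), with the value of D below its background limit.

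The transcription factors of cytotoxic and type 1 lymphocytes rose with these effectors. TBX21 (T-bet) had 85.7, 457, 122 and 773 scaled counts in the 2-dose tumours and 53.2, 66.3 and 67.98 in the 1-dose tumours (2.50 log2, SE 0.64, adjusted p = 0.0292). EOMES had 79.7, 494, 114 and 571 scaled counts in the 2-dose tumours and 37.5, 52.4 and 40.4 in the 1-dose tumours (2.83 log2, SE 0.67, adjusted p = 0.0206). For both, A and C exceeded the 1-dose range by less than B and D did.

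T cell markers were called higher in 4 of 23 and lower in 0, namely CD2, CD28, SH2D1A and TRGC3, against 9.39% higher over all tested genes, and the list median was 1.65 log2. With TMM 2 of the 23 were called. CD3E, a chain of the T cell receptor complex, had 192, 360.4, 291 and 764 scaled counts in the 2-dose tumours and 74.4, 130.3 and 159.9 in the 1-dose tumours. The groups did not overlap, but the difference did not pass (1.71 log2, SE 0.74, adjusted p = 0.121). CD8A, the co-receptor of killer T cells, had 111, 618, 254 and 474 scaled counts in the 2-dose tumours, against 63.5, 103 and 83.6 in the 1-dose tumours (2.12 log2, SE 0.81, adjusted p = 0.0851), again without overlap and without passing. CD4, the helper co-receptor that canine neutrophils also carry, had 84.97, 1652, 161 and 562 scaled counts in the 2-dose tumours and 85.3, 39.3 and 56.96 in the 1-dose tumours (3.34 log2, SE 1.09, adjusted p = 0.0576). CD4 was highest in B, and A was level with 1-dose tumour A.

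NK cell receptors were called higher in 3 of 10 (IL2RB, NCR1 and KLRB1) and lower in 0, against 9.39% higher over all tested genes. IL2RB is also on the IL-2 and IL-12 pathway list. The list median was 1.61 log2, and 8 of the 10 differences were positive. The lowest were -0.715 log2 in NCAM1, -0.44 in NCR3 and 0.16 in KLRK1. With TMM 1 of the 10 was called. NCR1 (NKp46) had 36.1, 235, 14.3 and 237 scaled counts in the 2-dose tumours and 15.01, 21.6 and 20.2 in the 1-dose tumours (2.73 log2, SE 0.79, adjusted p = 0.04). C and D were below background in NCR1, as were all 3 1-dose tumours, so 2 of its 7 values were above background, and it was not called with TMM (adjusted p = 0.0632). CD160, a receptor of NK and killer T cells, had 93.99, 119, 118 and 105 scaled counts in the 2-dose tumours, against 27.3, 29.3 and 71.7 in the 1-dose tumours and narrowly missed the threshold (1.35 log2, SE 0.42, adjusted p = 0.0502). Its 4 2-dose values were close together, from 93.99 to 119, and D was below its background limit.

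**Figure D2:**
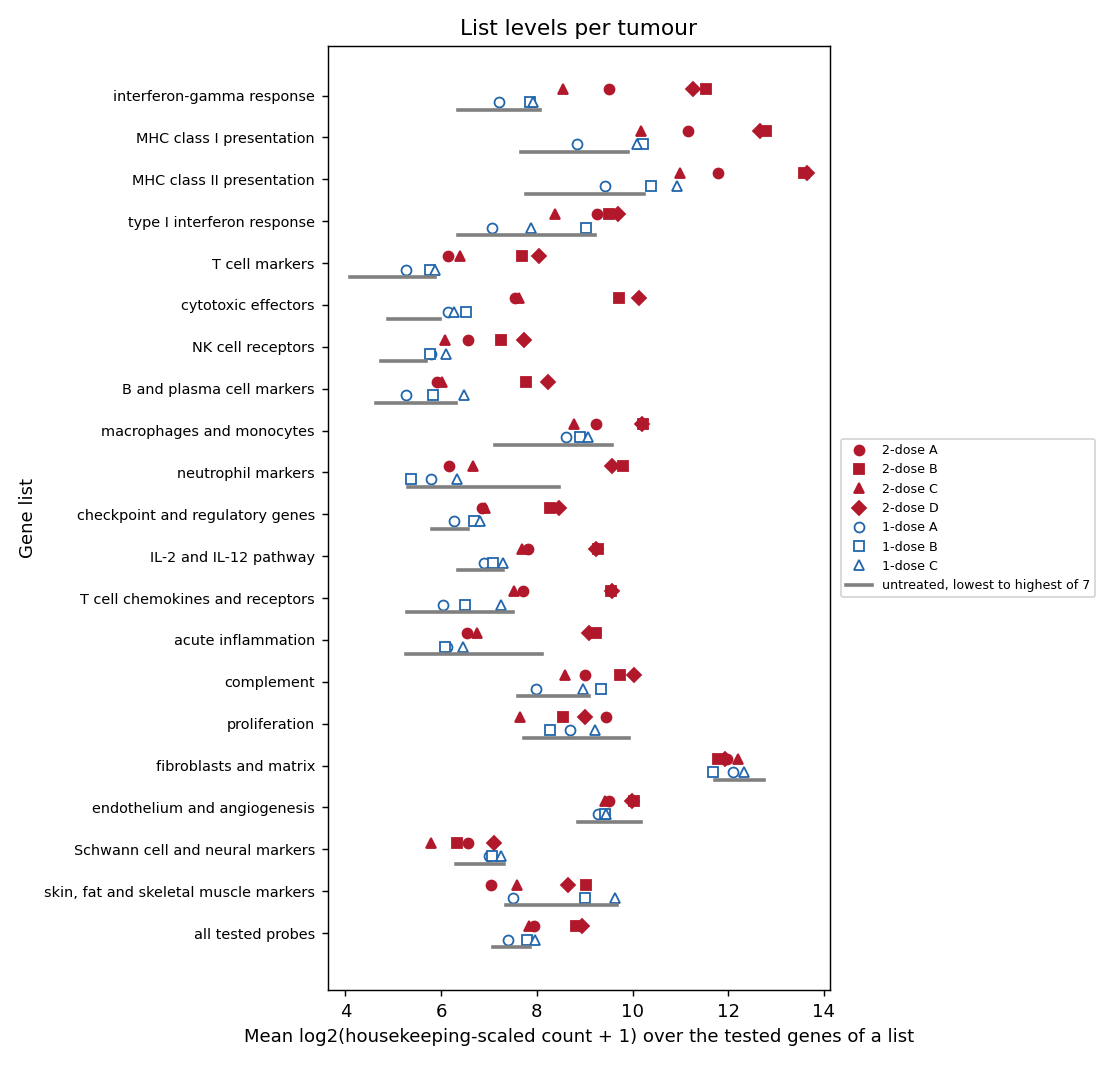
Mean log2(scaled count + 1) over the tested genes of each list, 1 row per list, with 2-dose tumours (filled, red) above 1-dose tumours (open, blue) and the untreated range as a grey bar. In the interferon-gamma list the 2-dose tumours lie at 8.55 to 11.5 and the 1-dose tumours at 7.21 to 7.92, while in the fibroblast and matrix list they lie at 11.8 to 12.2 and 11.7 to 12.3.

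The receptors for the injected cytokines were among the genes measured. The IL-2 and IL-12 pathway list was called higher in 10 of 29 and lower in 0, against 9.39% higher over all tested genes. Its median was 1.63 log2, and 7 were also called with TMM. IL2RB, the signalling chain shared by IL-2 and IL-15, had 214, 1053, 205 and 1141 scaled counts in the 2-dose tumours and 56.6, 81.7 and 69.8 in the 1-dose tumours. All 2-dose tumours exceeded the 1-dose range and the untreated range of 24.96 to 85.2. The difference was 3.22 log2 (SE 0.67, adjusted p = 0.0158). IL2RA, the high-affinity chain CD25, had 160.2, 719, 84.3 and 571 scaled counts in the 2-dose tumours and 15.7, 20.05 and 43.2 in the 1-dose tumours (3.85 log2, SE 1.15, adjusted p = 0.0441), and 1 of the 3 1-dose tumours was above background. IL2RA also marks regulatory T cells. IL12RB2, the signalling chain of the IL-12 receptor, had 46.6, 217, 73.9 and 289.7 scaled counts in the 2-dose tumours, against 21.8, 29.3 and 34.9 in the 1-dose tumours (2.41 log2, SE 0.97, adjusted p = 0.0981). IL18R1, the receptor of interleukin-18, had 47.4, 220.1, 34.98 and 334 scaled counts in the 2-dose tumours, against 19.8, 23.1 and 49.6 in the 1-dose tumours (2.32 log2, SE 0.84, adjusted p = 0.0715). Neither passed, and D was below background in both.

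Checkpoint and regulatory genes were called higher in 4 of 28 and lower in 0, against 9.39% higher over all tested genes. Their median was 1.06 log2, against 0.61 over all tested genes, and with TMM 4 were called higher and 1 lower. The 4 were CD274, IDO1, IL2RA and EBI3. CD274, the ligand PD-L1, had 290.2, 1275, 165 and 966 scaled counts in the 2-dose tumours and 45.7, 57.1 and 79.01 in the 1-dose tumours, with no overlap (3.47 log2, SE 0.75, adjusted p = 0.0168). Untreated tumours had 41.1 to 223, a range that held 2-dose tumour C. Its receptor PDCD1 (PD-1) had 25.6, 68.5, 38.2 and 87.8 scaled counts in the 2-dose tumours, against 32.1, 43.2 and 43.2 in the 1-dose tumours (0.41 log2, SE 0.65, adjusted p = 0.708), with A below the 1-dose range and D below background. LAG3, an inhibitory receptor, had 70.7, 96.2, 54.9 and 176 scaled counts in the 2-dose tumours, against 47.8, 181 and 97.4 in the 1-dose tumours (-0.18 log2, SE 0.58), and the groups overlapped throughout, with D below its background limit. CTLA4, another brake on T cells, had 40.6, 359, 63.6 and 606 scaled counts in the 2-dose tumours, against 31.4, 50.1 and 67.1 in the 1-dose tumours (2.40 log2, SE 0.78, adjusted p = 0.0579), with A and C inside the 1-dose range. FOXP3, the transcription factor of regulatory T cells, had 27.8, 29.4, 29.4 and 61.5 scaled counts in the 2-dose tumours, against 32.8, 33.2 and 27.6 in the 1-dose tumours (0.15 log2, SE 0.60, adjusted p = 0.898). The higher FOXP3 value of D was below its background limit. The signs of PDCD1 and FOXP3 turned with TMM.

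T cell chemokines and their receptors were called higher in 6 of 26 and lower in 0, against 9.39% higher over all tested genes, with a median of 2.24 log2. With TMM 3 of the 26 were called. CCL8, a chemokine for monocytes and T cells, had 1065, 8869, 466 and 11668 scaled counts in the 2-dose tumours and 38.2, 50.1 and 79.9 in the 1-dose tumours (6.62 log2, SE 1.35, adjusted p = 0.0158). The groups were far apart, and C was again the lowest 2-dose tumour. CXCR6, a homing receptor of tissue T cells, had 141, 659, 188 and 843 scaled counts in the 2-dose tumours and 41.6, 70.2 and 79.01 in the 1-dose tumours (2.83 log2, SE 0.71, adjusted p = 0.0276). CCL7, a monocyte chemokine, had 44.4, 2557, 61.2 and 1431 scaled counts in the 2-dose tumours, against 42.99, 23.9 and 21.1 in the 1-dose tumours (5.11 log2, SE 1.55, adjusted p = 0.0473). In CCL7 A and C were barely above the 1-dose tumours, and the call was lost with TMM (adjusted p = 0.063).

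Acute inflammation genes were called higher in 3 of 21 and lower in 0, with a median of 2.52 log2. Neutrophil markers were called higher in 2 of 13 and lower in 0, with a median of 2.37 log2. The share called higher over all tested genes was 9.39%, and with TMM 2 acute inflammation genes and 1 neutrophil marker were called. SAA1, the acute phase protein serum amyloid A, had 31.6, 535, 23.1 and 465 scaled counts in the 2-dose tumours and 21.8, 17.7 and 9.19 in the 1-dose tumours (3.98 log2, SE 0.95, adjusted p = 0.0209). TNF, tumour necrosis factor, had 62.4, 539.8, 47.7 and 439 scaled counts in the 2-dose tumours, against 45.7, 49.4 and 45.02 in the 1-dose tumours (2.52 log2, SE 0.72, adjusted p = 0.0392). In TNF tumour C lay inside the 1-dose range, and the call was lost with TMM (adjusted p = 0.0806). CSF3R, the receptor for the neutrophil growth factor G-CSF, had 33.1, 2025, 105 and 465 scaled counts in the 2-dose tumours, against 19.1, 20.05 and 21.1 in the 1-dose tumours (5.02 log2, SE 1.49, adjusted p = 0.0441), and A, at 33.1, was the lowest 2-dose tumour.

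The neutrophil alarmin S100A8 had 375, 17530.0, 356 and 17858 scaled counts in the 2-dose tumours and 343, 169.7 and 229 in the 1-dose tumours (5.19 log2, SE 1.61, adjusted p = 0.0502). Its partner S100A9 had 63.2, 8356, 113 and 6207 scaled counts in the 2-dose tumours, against 46.4, 18.5 and 47.8 in the 1-dose tumours (6.61 log2, SE 2.22, adjusted p = 0.0617). IL6, an inflammatory cytokine, had 54.1, 3501, 299.8 and 3389 scaled counts in the 2-dose tumours, against 12.3, 19.3 and 67.1 in the 1-dose tumours (5.78 log2, SE 1.97, adjusted p = 0.066). None of S100A8, S100A9 and IL6 passed the test. In all 3 genes B and D held the high values, while A and C were much nearer the 1-dose tumours. The neutrophil markers S100A8, S100A9 and CXCR2 summed to 453 to 26303 scaled counts in the 2-dose tumours and 199.8 to 402 in the 1-dose tumours, with none at 0. KRT14, a keratin of basal epidermis and the only skin marker of the marker set on the panel, had 24.1, 9585, 27.03 and 4934 scaled counts in the 2-dose tumours, against 29.3, 495 and 1520.4 in the 1-dose tumours and did not pass (2.42 log2, SE 2.15). S100A8 and S100A9 are also made by keratinocytes, and KRT14 was high in the same 2 tumours, B and D, that had the low housekeeping and positive control counts. The part of skin, of neutrophils and of RNA quality in these results was not tested.

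**Figure D3:**
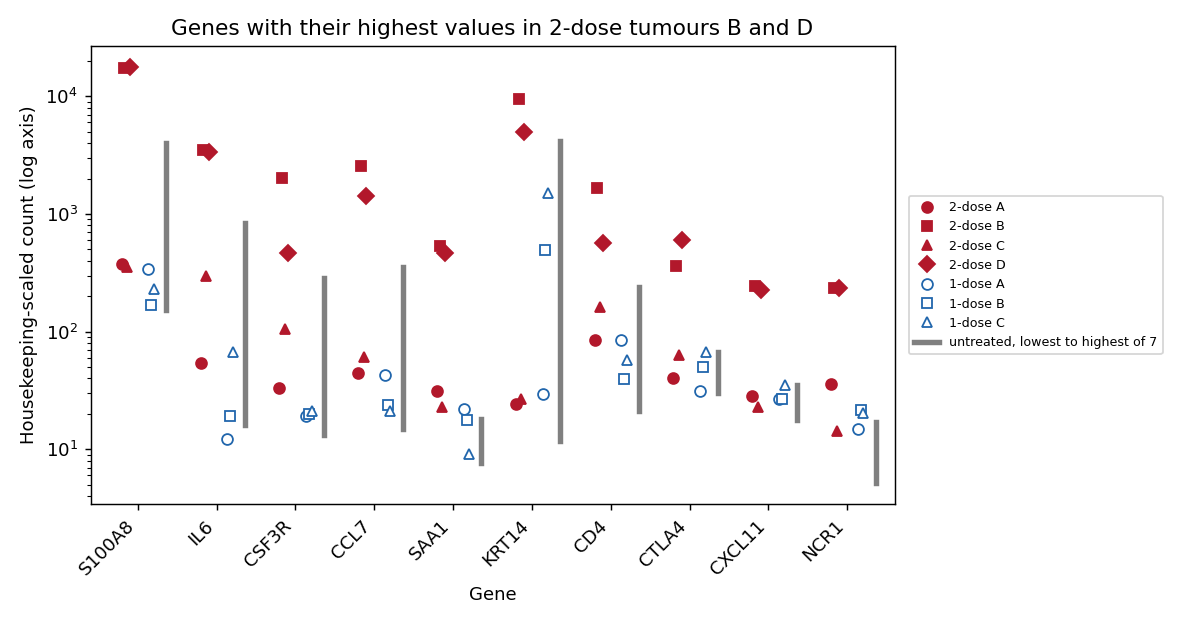
Housekeeping-scaled counts (log axis) of 10 genes whose highest values were those of 2-dose tumours B and D, with 2-dose tumours (filled, red) left of 1-dose tumours (open, blue) and the untreated range as a grey bar. S100A8 lies at 17530 and 17858 in B and D against 356 and 375 in C and A, and KRT14 shows the same split.

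B and plasma cell markers were called higher in 1 of 17 and lower in 0, under the 9.39% of all genes, with a median of 1.42 log2. The called gene was PRDM1, the plasma cell regulator Blimp-1, also used by effector T cells. PRDM1 had 20.3, 414, 161 and 246 scaled counts in the 2-dose tumours and 11.6, 23.1 and 50.5 in the 1-dose tumours (2.88 log2, SE 0.86, adjusted p = 0.0453), with A inside the 1-dose range and D below background. PRDM1 was not called with TMM (adjusted p = 0.0629). IGHM, the heavy chain of IgM, had 302, 4300.2, 601 and 10141 scaled counts in the 2-dose tumours, against 232, 272 and 789 in the 1-dose tumours (3.15 log2, SE 1.11, adjusted p = 0.0682). IGHM was high in B and D only, and 1-dose tumour C exceeded 2-dose tumours A and C.

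Macrophage and monocyte genes were called higher in 1 of 25, CCL8, and lower in 0, against 9.39% higher over all tested genes. Their median was 0.75 log2, close to the 0.61 of all genes. CD68, a lysosomal marker of macrophages, had 1105, 3786, 989 and 2125 scaled counts in the 2-dose tumours and 745, 757 and 687 in the 1-dose tumours. It did not overlap but did not pass (1.45 log2, SE 0.60, adjusted p = 0.106). C1QA, a complement chain made by macrophages, had 3151, 6659.8, 1305 and 4346 scaled counts in the 2-dose tumours, against 1439.8, 2404 and 1294 in the 1-dose tumours (1.17 log2, SE 0.79). NR1H3, the sterol-sensing nuclear receptor LXR-alpha of macrophages, had 999, 6065, 1528 and 3547 scaled counts in the 2-dose tumours and 272, 497 and 404 in the 1-dose tumours and was called higher (2.96 log2, SE 0.63, adjusted p = 0.0168).

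MRC1, F13A1 and CD36 had lower values in every 2-dose tumour than in any 1-dose tumour, although none was called with housekeeping scaling. That pattern was found in 26 of the 724 tested genes (3.59%). Of MRC1, F13A1 and CD36 only MRC1 is on the macrophage list, in which 20 of 25 genes had a positive difference, beside 513 of the 724 tested genes. MRC1, the mannose receptor CD206, had 506, 261, 444 and 597 scaled counts in the 2-dose tumours and 1100.0, 1134 and 1348 in the 1-dose tumours. All 2-dose tumours were below all 1-dose tumours, at -1.41 log2 (SE 0.57, adjusted p = 0.101), and with TMM the gene was called lower (-1.86 log2, adjusted p = 0.0452). F13A1, a coagulation factor subunit made by tissue macrophages, had 241, 153, 170.2 and 342 scaled counts in the 2-dose tumours and 698, 919 and 706 in the 1-dose tumours (-1.79 log2, SE 0.62, adjusted p = 0.0662). It too was called lower with TMM (-2.31 log2, adjusted p = 0.0306). CD36, a scavenger receptor of macrophages, fat cells and endothelium, had 706, 144, 246 and 43.9 scaled counts in the 2-dose tumours, against 1166, 891 and 1007 in the 1-dose tumours (-1.82 log2, SE 0.62, adjusted p = 0.0662), with D below its background limit, and CD36 was not called with TMM (adjusted p = 0.0782). CD163, the haemoglobin scavenger receptor, had 813, 532, 462 and 1528 scaled counts in the 2-dose tumours, against 1261, 1353 and 1279.7 in the 1-dose tumours (-0.65 log2, SE 0.79), and 2-dose tumour D held the highest of the 7 values.

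All 4 2-dose tumours lay below all 3 1-dose tumours in 26 of the 724 genes (3.59%), and in 23 of these also with TMM-scaled counts, by which 45 genes (6.22%) had that pattern. NT5E, the ectoenzyme CD73 that makes adenosine, was one of them, with 130.1, 205, 175 and 219 scaled counts in the 2-dose tumours and 424, 507 and 288 in the 1-dose tumours (-1.16 log2, SE 0.40, adjusted p = 0.0662), with D below its background limit. ALCAM, an adhesion molecule of the immunoglobulin family, was another, with 359, 481, 349.8 and 386 scaled counts in the 2-dose tumours, against 1079, 567 and 834 in the 1-dose tumours (-1.07 log2, SE 0.41, adjusted p = 0.0891). Both were called lower with TMM, at adjusted p = 0.0224 for NT5E and 0.0269 for ALCAM. THBD, the anticoagulant receptor thrombomodulin, had 2768, 881, 921 and 536 scaled counts in the 2-dose tumours and 7629.7, 4847 and 3349.5 in the 1-dose tumours and was called by neither scaling (-2.04 log2, SE 1.17, adjusted p = 0.246).

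The lowest p-values among genes with a negative difference belonged to MAP2 and CREB5. MAP2, a neuronal microtubule protein, had 26.3, 35.9, 12.7 and 87.8 scaled counts in the 2-dose tumours and 196, 434 and 14.7 in the 1-dose tumours (-2.56 log2, SE 0.83, adjusted p = 0.0567). Only A was above background among the 2-dose tumours, and 1-dose tumour C was as low as they were. CREB5, a transcription factor, had 25.6, 89.7, 19.1 and 105 scaled counts in the 2-dose tumours, against 381, 426 and 75.3 in the 1-dose tumours (-2.38 log2, SE 0.79, adjusted p = 0.0599), with D below its background limit. Tumour C of the 1-dose group lay between 2-dose tumours A and B. Both MAP2 (adjusted p = 0.0192) and CREB5 (adjusted p = 0.013) were called lower with TMM.

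**Figure D4:**
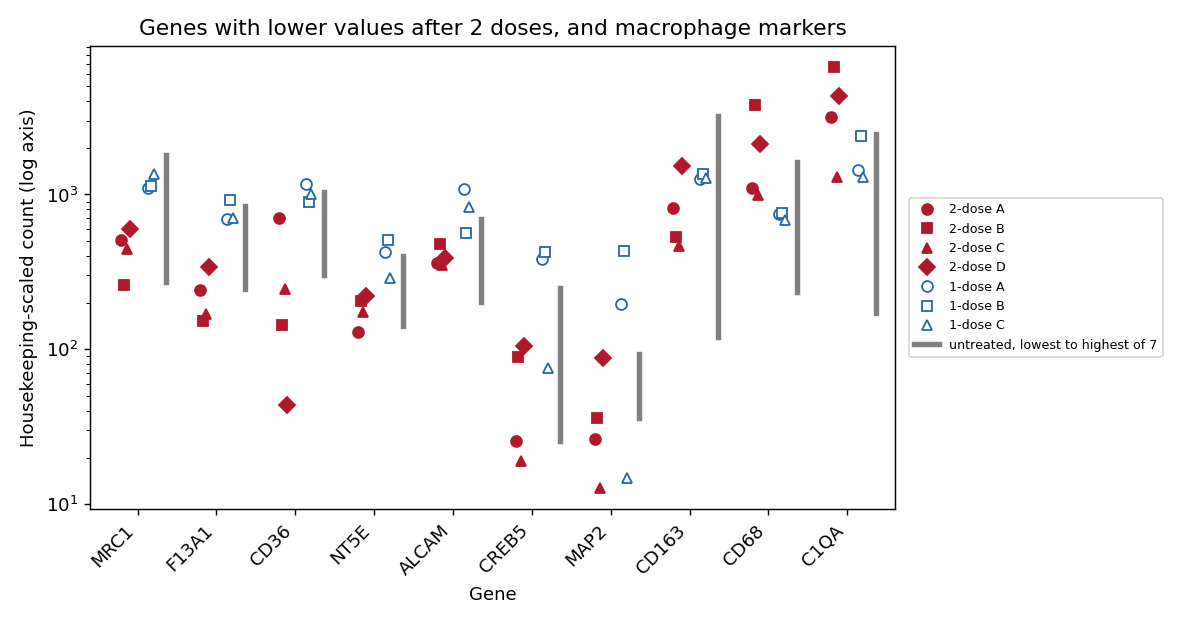
Housekeeping-scaled counts (log axis) of 7 genes with lower values after 2 doses and 3 macrophage markers, with 2-dose tumours (filled, red) left of 1-dose tumours (open, blue) and the untreated range as a grey bar. MRC1, F13A1, CD36, NT5E and ALCAM show all 2-dose tumours below all 1-dose tumours, and none of the 5 was called with housekeeping scaling. That pattern was found in 26 of the 724 tested genes (3.59%).

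Gene groups of the tumour and its stroma held no called gene in either direction, beside 9.39% called higher over all tested genes. For lists of 6 genes, 0 calls is near that share. The median difference was -0.03 log2 over 16 fibroblast and matrix genes, -0.25 over 6 Schwann cell and neural markers, 0.16 over 6 proliferation genes, 0.66 over 12 genes of endothelium and angiogenesis and 0.82 over 23 complement genes. With TMM these medians were -0.56, -0.87, -0.31, 0.07 and 0.19, beside 0.04 over all genes. COL1A1, the main collagen chain, had 53266, 24245, 18701 and 26339 scaled counts in the 2-dose tumours and 45239, 21968 and 93108 in the 1-dose tumours (-0.80 log2, SE 0.76). MKI67, a marker of dividing cells, had 313, 497, 66.8 and 658 scaled counts in the 2-dose tumours, against 87.3, 57.1 and 266 in the 1-dose tumours (1.47 log2, SE 0.87, adjusted p = 0.262). In both genes the groups overlapped. The 6 skin, fat and muscle markers also held 0 called genes, with a median of 0.12 log2. In the other 7 lists, 2 of 68 tested list entries were called higher, CD40 and FASLG, and 0 lower, beside the same 9.39%.

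How far these calls rest on single tumours was measured by leaving out each in turn. Without 2-dose tumour B, 10 genes were called higher, and without D, 13. Without A or C the counts were 159 and 184 higher and 7 and 8 lower. The 10 genes called in each of these 4 fits were CXCL10, GBP5, CCL8, GZMB, IFNG, ACOD1, IL2RB, NKG7, GZMA and NR1H3. Without any 1 of the 1-dose tumours A, B or C, 0 genes were called, with the lowest adjusted p at 0.13, 0.0923 and 0.068 and 146, 179 and 220 genes at an unadjusted p under 0.05. The 68 genes kept a positive difference in each of these 7 fits. They were selected for a large positive difference in the same tumours, so a kept sign was likely in advance.

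With the fibrosarcoma D and the perivascular wall tumour set aside, 3 2-dose and 2 1-dose peripheral nerve sheath tumours remained. In that fit 0 genes were called by edgeR and 75 had an unadjusted p under 0.05, and the 68 genes had a median of 2.59 log2, against 3.08 with all tumours. With tumour type as a term in the model 0 genes were called, 129 had an unadjusted p under 0.05, and that median was 2.63. D was the only fibrosarcoma of the series, so the type term fitted D by itself and D did not inform that difference. Both fits thus leave D out of the comparison, and neither can adjust D for its type. All 68 genes stayed above 0 in both fits, again as genes selected for a positive difference in the same tumours.

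**Figure D5:**
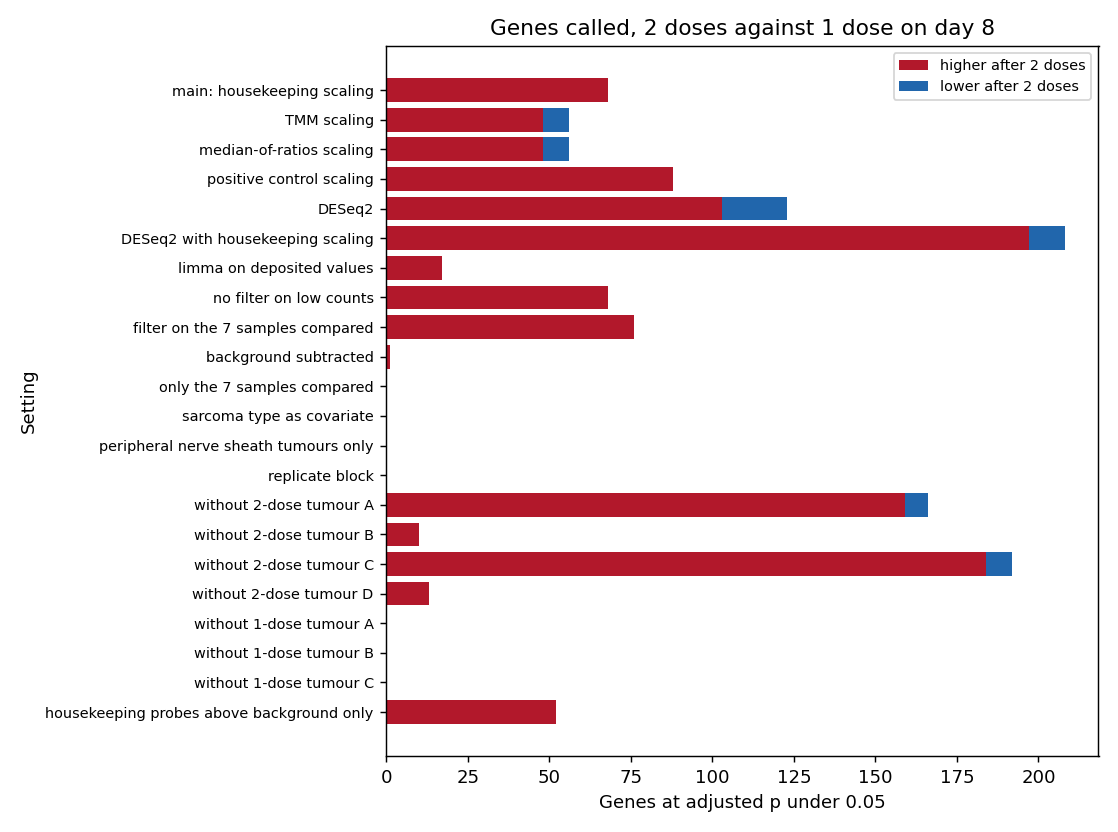
Number of genes at adjusted p under 0.05 in each fit, with genes higher after 2 doses in red and lower in blue. The count is 68 with housekeeping scaling and all tumours, 10 and 13 without 2-dose tumours B and D, and 0 without any 1 of the 1-dose tumours.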

How the data were processed

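RNA of 7 compared and 10 other tumours was counted on the nCounter Canine IO panel (780 endogenous, 20 housekeeping, 8 negative and 6 positive control probes). Per the labels' design text, the authors extracted RNA from fixed tissue and exported values with nSolver, whose version is not given in the sources used here. The raw files, as deposited, give unnormalized counts. The authors' normalized signal, also deposited, was used only as an alternative. Against raw counts, its 2-dose values carry a factor per probe (SD 0.0589 log2, -0.23 to 0.19 over 380 probes) that its 1-dose values lack. The raw counts carry no such correction, and the reagent lot is not given in the sources used here. A further table with 17 columns of per-sample values matching no label was not used.

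Raw counts were tested with edgeR 4.0.16 (R 4.3.3; quasi-likelihood F-test, robust) with all 17 tumours in 4 groups and the housekeeping geometric mean as library size. Genes above background in at least 3 tumours were tested (724, with 56 left out), with Benjamini-Hochberg adjustment over all of them. The standard error (SE) was derived from the log2 change and its F statistic. P-values are set against the spread within groups, pooled over all 17 tumours. That spread holds differences between dogs and between assays, which cannot be told apart. Alternatives used DESeq2 1.42.0, limma 3.58.1 on the deposited signal, other scalings and filters, and left-out tumours. The fit was tested on simulated counts with the same spread setting for all genes and no background floor. That test checks the fitting, not the calls in these tumours. Probe names were matched to RefSeq (UU_Cfam_GSD_1.0) for 777 of 800 probes, and no sequence was used. Counting error was largest in 2-dose tumour D.

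This comparison, whose tumours are defined by title, and the lists and genes were chosen with earlier results of these data known. Named genes were the 15 largest calls in each direction (with under 5 calls, the 5 smallest unadjusted p), a set of anchor genes, and the 3 highest and 3 lowest of each of 27 lists. Those described here outside that rule (NKG7, CXCR6, NR1H3, ALCAM, TNF, DLA-DRA, CD74 and THBD) were chosen after their values were seen. Not every gene that the rule names is reported here.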

Additional observations from a re-analysis of the deposited data

Results flagged for a closer look

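In 95 sets of 4 values from the 2-dose tumours (genes, list levels and measures of depth), 2 held 1 tumour far from the other 3, and chance alone flags about 1 in 20 such sets. The first was the background limit of 2-dose tumour D, at 338 scaled counts against 17.5 to 66.1 in the other 2-dose tumours. The second was FOXP3 in the same tumour, at 61.5 scaled counts against 27.8 to 29.4 in the others, a value below the background limit of D.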

How the results depend on the processing

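The 68 genes called higher kept a positive difference in all alternatives in which they were tested (66 of them with the filter on the 7 tumours alone). They were selected for that difference in the same tumours, so a kept sign was likely in advance. The number of calls depended on the setting. By edgeR, 0 genes were called with only the 7 tumours compared (lowest adjusted p 0.118, 195 at an unadjusted p under 0.05), with sarcoma type as a covariate (129), in peripheral nerve sheath tumours only (75) and with the replicate block (133). The fit with sarcoma type drew nothing from 2-dose tumour D, the only fibrosarcoma of the series. Background subtraction left 1 gene higher, ACOD1, and 0 lower, and limma on the deposited values 17 higher and 0 lower. DESeq2 called 123 (103 higher, 20 lower), and 208 with housekeeping scaling (197 higher, 11 lower). TMM and median-of-ratios scaling each gave 48 higher and 8 lower, and positive control scaling 88 higher. Leaving out 1 tumour at a time gave 0 to 192 calls, 0 to 184 higher and 0 to 8 lower. Scaling by housekeeping probes above background only, chosen after seeing the data, gave 52 higher. Where a call or count changed, the cause was not tested.

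The median over all tested genes was 0.0076 log2 with median-of-ratios scaling, 0.0019 with DESeq2, 1.34 with positive control scaling and 0.40 to 0.77 with 1 tumour left out. List medians, taken relative to the median of all genes, moved by less than the spread between 2-dose tumours in 399 of 420 comparisons. In lists where B and D stood apart from A and C that spread was wide, so staying within it shows little. The acute inflammation median, 1.91 in the main fit, was 1.11 with the replicate block and still counted as within it. Background subtraction gave 2.97 for cytotoxic effectors, 1.496 for NK cell receptors, 1.58 for the IL-2 and IL-12 pathway, 2.32 for T cell chemokines, -0.11 for complement, 0.35 for endothelium and -1.36 for Schwann cell markers. With sarcoma type as a covariate NK cell receptors were at 0.70 and complement at 0.0447. In peripheral nerve sheath tumours only, NK cell receptors were at 0.73, macrophages at 0.46 and complement at -0.19. B and plasma cell markers were at 0.10 on the deposited values. With 1 tumour left out, type I interferon genes ran from 0.28 to 0.84, macrophages from 0.0017 to 0.35, complement from 0.0299 to 0.57 and endothelium from -0.0836 to 0.38.

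The letters A to C of the 2 groups mark different dogs, and deviations of same-letter tumours from their group means correlated at 0.205, 0.0187 and -0.0713, so they do not pair the tumours. The replicate block gave 0 calls, a macrophage median of -0.018 and complement at -0.05007, with FOXP3 at -0.10.

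Among genes described, 5 that were not called changed sign. FOXP3 was at -0.38 with TMM, -0.42 by both median-of-ratios scaling and DESeq2, -0.61 on the deposited values, -0.59 with background subtraction, -0.15 with sarcoma type, -0.0739 in peripheral nerve sheath tumours and -0.11 to 0.26 with 1 tumour left out, the lowest without 2-dose tumour D. PDCD1 was at -0.21 with TMM, -0.22 with median-of-ratios, -0.23 with DESeq2, -0.58 on the deposited values and -1.06 with background subtraction. LAG3 was at 0.61 and CD163 at 0.0639 with positive control scaling, and LAG3 at -0.56 to 0.41 with 1 tumour left out, above 0 without 2-dose tumour C or 1-dose tumour B. MX1 was at -0.25 with TMM, -0.27 by both median-of-ratios scaling and DESeq2, -0.0698 with background subtraction, -0.0421 with sarcoma type, -0.20 in peripheral nerve sheath tumours and -0.33 to 1.34 with 1 tumour left out, below 0 without 2-dose tumour A or C or 1-dose tumour A or C. Depth limited 2-dose tumour D most: 15 of the 68 called genes were below background there and 1 in B, and 8 were above background in no 1-dose tumour.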
